A study of Mus musculus with 42 samples.

Results

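The Rhox genes (reproductive homeobox genes on the X chromosome) encode homeodomain transcription factors that are expressed mainly in the testis, ovary and placenta. Of the 35 genes with a Rhox symbol among the 27179 genes counted, 9 are described here: Rhox1, Rhox5, Rhox6, Rhox8, Rhox9, Rhox10, Rhox11, Rhox12 and Rhox13. They were chosen by name with their measured levels and differences in all 12 libraries already known, that is, selected on the same counts that are described here. For that reason their values are given as a description, without p-values. Where a fit across all genes called a member, the call is counted beside the share of all genes called and supports nothing. The contrast of interest is between Rhox10 and Rhox13, which are genes of germ cells, and Rhox5 and Rhox8, which are genes of Sertoli cells, the somatic cells that nurse the germ cells inside the tubule.

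RNA-seq was performed on Thy1+ and c-Kit+ spermatogonia of male C57BL/6J mice at 10 days post-partum (dpp), with 3 libraries in each of 4 groups. Control mice carried Ddx4-Cre and a single floxed Chd8 allele (Ddx4-Cre/Chd8+/F), and mutant mice, called CKO here, carried Ddx4-Cre with a floxed and a null allele (Ddx4-Cre/Chd8F/-), so the Cre and a floxed allele were shared by all groups. Chd8 encodes a chromatin remodeler, and Ddx4-Cre deletes it in germ cells and not in somatic cells. The null allele is in every cell, so the Sertoli cells of CKO mice hold a single intact copy and those of controls hold both, and the genotypes differ in the somatic cells too. Cells were enriched with magnetic beads after straining and an adhesion step meant to remove somatic cells. The c-Kit+ cells, which the study takes as differentiating spermatogonia, came first. The Thy1+ cells, taken as undifferentiated spermatogonia, came from the flow-through. The testes of 3 pups served an analysis, with n = 3 per genotype, but whether each library is from its own pup is not stated outright. If not, the p-values below measure only the spread between these libraries, which may be technical.

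Library totals ran from 32266861 to 45396233 counts. Chd8 itself cannot check the genotype in this table, since the recombination removes only some of its exons and the counts cover the whole gene: its log2 fold change (CKO minus control) was 0.03 ± 0.09 (SE) in Thy1+ and 0.06 ± 0.07 in c-Kit+ cells. All 15 germ cell markers examined, such as Ddx4 and Dazl, had counts in every library, and so did all 20 Sertoli markers, such as Sox9 and Amh. The summed level of the Sertoli markers differed widely between libraries. It ran from 819 to 3362 counts-per-million (CPM) in control Thy1+, from 1545 to 4467 in CKO Thy1+, from 911 to 2262 in control c-Kit+ and from 3637 to 3970 in CKO c-Kit+ libraries. Replicate 1 was the highest of both Thy1+ groups and stood apart from replicates 2 and 3. The Thy1+ libraries also held much RNA of stromal cells, which are somatic. The 6 stromal markers summed to 12995 ± 1762 CPM (SD) in control and 15915 ± 3360 in CKO Thy1+ libraries. The germ cell markers there summed to 3244 ± 750 and 2583 ± 747 CPM. In c-Kit+ libraries the stromal sums were 2045 ± 228 and 3636 ± 594 CPM, and the germ cell sums 5022 ± 379 and 4175 ± 281. In bulk RNA, fewer cells of a type and less RNA per cell cannot be told apart.

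The family lies in a cluster of 916 kb, in which duplicated copies of Rhox2, Rhox3 and Rhox4 sit between Rhox1 at one end and Rhox5 to Rhox13 at the other. Rhox5 (also called Pem) is the founding member and depends on androgen in Sertoli cells, and Rhox8 is another Sertoli cell gene. Rhox10 is needed for the formation of spermatogonial stem cells. Rhox13 is expressed in germ cells as they differentiate towards meiosis. Rhox6 and Rhox9 are close paralogs known from placenta and germ cells.

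In mm10, the exons counted span chrX:37213804-37222258 for Rhox1 (minus strand), chrX:37804842-37808878 for Rhox5 (plus), chrX:37827055-37829857 for Rhox6 (plus), chrX:37874776-37878944 for Rhox8 (minus) and chrX:37899097-37901770 for Rhox9 (minus). They span chrX:38066475-38071688 for Rhox10 (plus), chrX:38076598-38085139 for Rhox11 (minus), chrX:38104062-38110907 for Rhox12 (minus) and chrX:38120840-38129966 for Rhox13 (plus). None of the 9 shares exons with another gene of the table. Of the 50-base windows of their exons, 0% occurred a second time within the cluster and 1 Mb on each side for Rhox1, Rhox5, Rhox10, Rhox11, Rhox12 and Rhox13. This share was 12.1% for Rhox8, 16.7% for Rhox6 and 23.1% for Rhox9, whose counts are less certain to that extent.

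The 250 bases before the first counted exon are shown for the 4 genes on which the results below turn, Rhox8 of Sertoli cells, Rhox10 and Rhox13 of germ cells, and Rhox1. They were read from the reference genome (GRCm38, the assembly of mm10) 5′ to 3′ on the strand of the gene, and CG dinucleotides, the sites of DNA methylation, are in capitals. For Rhox8 the RefSeq annotation places the start of the gene further upstream, at chrX:37890766. The window shown for Rhox8 therefore lies inside the annotated gene and not before that start.
Rhox8, chrX:37878945-37879194, minus strand: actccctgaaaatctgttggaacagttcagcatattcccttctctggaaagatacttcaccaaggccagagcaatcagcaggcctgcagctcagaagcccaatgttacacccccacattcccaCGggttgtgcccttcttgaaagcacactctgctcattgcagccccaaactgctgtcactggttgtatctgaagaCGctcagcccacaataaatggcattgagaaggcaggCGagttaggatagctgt
Rhox10, chrX:38066225-38066474, plus strand: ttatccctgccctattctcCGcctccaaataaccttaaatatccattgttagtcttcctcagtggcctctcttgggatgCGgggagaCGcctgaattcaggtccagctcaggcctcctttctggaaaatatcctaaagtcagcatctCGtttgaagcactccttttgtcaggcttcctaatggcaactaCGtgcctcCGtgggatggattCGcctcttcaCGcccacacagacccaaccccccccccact
Rhox13, chrX:38120590-38120839, plus strand: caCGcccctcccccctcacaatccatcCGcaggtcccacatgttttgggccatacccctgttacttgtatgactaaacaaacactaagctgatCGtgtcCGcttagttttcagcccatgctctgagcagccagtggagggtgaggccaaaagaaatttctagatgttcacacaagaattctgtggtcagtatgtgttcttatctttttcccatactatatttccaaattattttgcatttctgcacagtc
Rhox1, chrX:37222259-37222508, minus strand: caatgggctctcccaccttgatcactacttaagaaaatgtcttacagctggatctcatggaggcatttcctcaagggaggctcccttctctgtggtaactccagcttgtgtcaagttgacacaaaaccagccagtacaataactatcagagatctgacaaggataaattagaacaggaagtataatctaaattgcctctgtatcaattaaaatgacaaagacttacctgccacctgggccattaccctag

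The window of Rhox10 held the most CG dinucleotides of these, with 8, against 4 in Rhox13, 3 in Rhox8 and 0 in Rhox1. The median over 27071 genes of the table was 7, and 8.08% of them had none. Among the other members, Rhox6 held 12, Rhox9 10, Rhox11 5 and Rhox12 2. Rhox6 and Rhox9 shared an unbroken run of 202 bases. For Rhox5, 150 of the 250 bases are unknown in the assembly, so its window was not used. The GATA motif AGATAA, searched on both strands like the next, was found for Rhox13 and in 9.56% of all windows. The ETS motif CCGGAA was found for Rhox6 and Rhox9 and in 13.6% of all windows. These letters are not in the windows of Rhox8 and Rhox10. Every CCGGAA match holds a CG, and AGATAA holds none.

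Rhox8 had the highest mean of the members in every group, but in the controls this rested on some libraries. Scaled to exon length, its mean level was 39.2 ± 39.8 RPKM (CPM per kilobase of exon, mean ± SD, n = 3) in control Thy1+ and 39.6 ± 19.1 in control c-Kit+ libraries. Rhox13 followed with 15.5 ± 4.78 and 34.6 ± 2.88 RPKM. In both control groups Rhox10 came next (8.25 ± 1.08 and 11.6 ± 1.68 RPKM), then Rhox1 (6.52 ± 1.68 and 6.56 ± 1.07) and Rhox5 (5.96 ± 4.81 and 4.75 ± 1.72). In control Thy1+ replicates 2 and 3 Rhox13, at 18.1 and 18.5 RPKM, was above Rhox8, at 14.5 and 18.0, which was at 85.1 in replicate 1, and in control c-Kit+ replicate 2 Rhox13 was at 35.1 and Rhox8 at 20.1. Rhox8 and Rhox13 did not differ beyond their spread in the control libraries, and neither did Rhox1 and Rhox5. The other 4 members were below 1 RPKM on average in every group. In the CKO libraries Rhox13 stood beside Rhox10, at 7.04 ± 1.63 against 7.49 ± 1.40 RPKM in Thy1+ and 11.6 ± 0.674 against 10.4 ± 0.669 in c-Kit+ cells, while Rhox8 was at 65.2 ± 49.1 and 101 ± 6.75 RPKM.

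**Figure D1:**
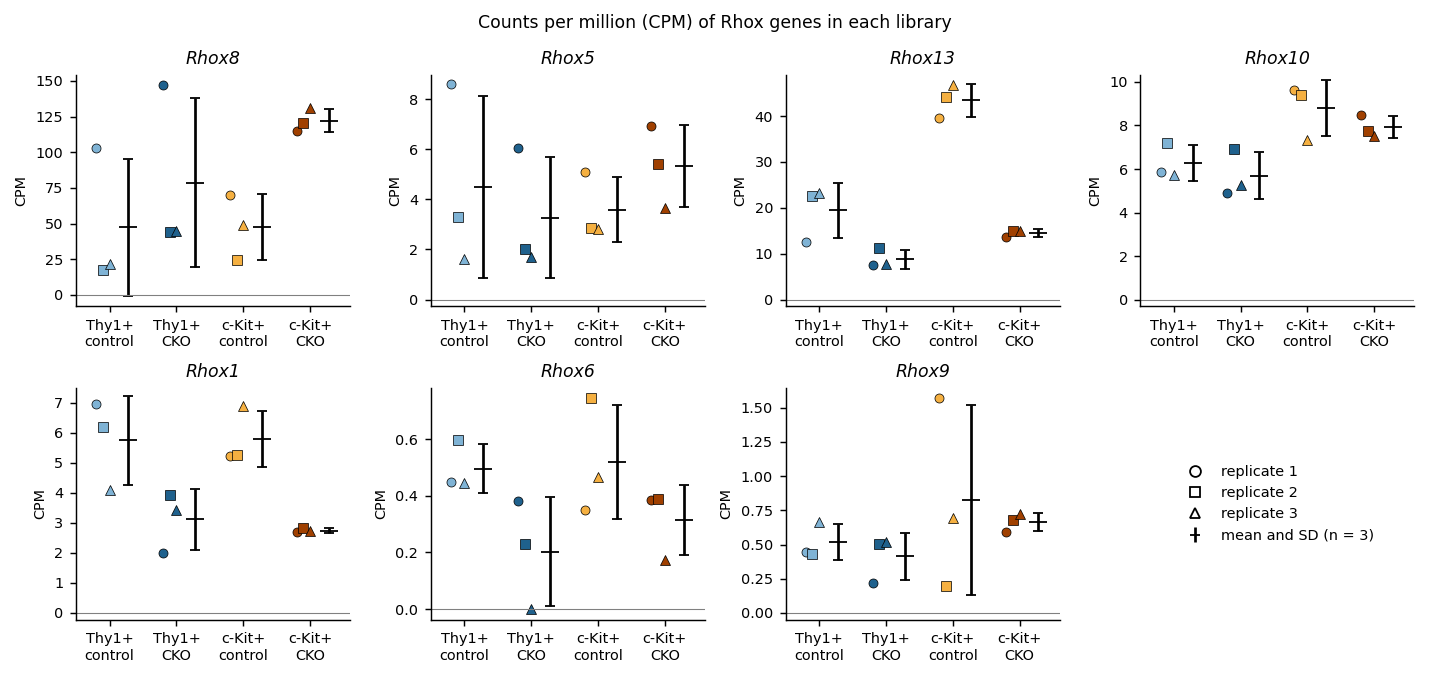
CPM of 7 Rhox genes in each library, by group; circles, squares and triangles are replicates 1, 2 and 3, and bars are the mean and SD (n = 3). The CKO c-Kit+ libraries sit above the controls for Rhox8, between 115 and 131 CPM, and below them for Rhox13, between 13.5 and 15.1 CPM, while the libraries of both genotypes overlap for Rhox10.

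The first comparison asked how the Rhox genes differ between CKO and control c-Kit+ cells. The Sertoli cell gene Rhox8 was higher and the germ cell gene Rhox13 lower in CKO cells, Rhox10 differed by less than the spread between libraries, and Rhox1 was lower. A gene was called when its Benjamini-Hochberg adjusted p (FDR) in edgeR's quasi-likelihood test was under 0.05 and its absolute log2 fold change over 0.5. Of the 9 members, 7 passed the filter on low counts, 1 was called higher (Rhox8) and 2 lower (Rhox1 and Rhox13). Over all 17134 genes tested, 22.2% were called, 14.8% higher and 7.41% lower. Of the 7, the same 1 and 2 members had groups that did not overlap, against 31.6% of all genes above and 20.6% below. Because these libraries were used to choose the members, nothing is read from these counts. The median log2 fold change of the 7 members was -0.36, against 0.01 over all genes.

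Rhox13, the germ cell gene linked to differentiation, was at 39.6, 44.1 and 46.7 CPM in control c-Kit+ replicates 1, 2 and 3 and at 13.5, 15.0 and 15.1 CPM in CKO replicates. All CKO libraries were below all controls, with a wide gap. The fitted level in CKO cells was 0.321 of that in controls, a log2 fold change of -1.64 ± 0.10 (SE). It was counted 459 to 1607 times per library, and its SE was the smallest among the members.

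Rhox10, the other germ cell gene, was at 9.64, 9.41 and 7.32 CPM in the control and at 8.50, 7.77 and 7.53 CPM in the CKO c-Kit+ libraries. The groups overlapped. The log2 fold change was -0.21 ± 0.15 (SE), so any difference was small beside that of Rhox13. The ratio of Rhox13 to Rhox10, per kilobase of exon and taken within a library, was 2.49, 2.84 and 3.86 in the controls and 0.966, 1.17 and 1.21 in the CKO libraries. On the log2 scale it was lower in CKO cells by a difference of -1.44, beside a pooled SD of 0.26, and the groups did not overlap.

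Rhox8 was at 70.3, 24.2 and 48.8 CPM in the control and at 115, 120 and 131 CPM in the CKO c-Kit+ libraries. The CKO libraries were close to each other, the controls were spread over a wide range, and the groups did not overlap. The log2 fold change was 1.30 ± 0.28 (SE). In a fit of all 12 libraries, which shares the spread of the Thy1+ groups, Rhox8 was no longer called (log2 fold change 1.35).

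Rhox5, the androgen-dependent gene, was at 5.10, 2.86 and 2.82 CPM in the control and at 6.94, 5.40 and 3.65 CPM in the CKO c-Kit+ libraries. The groups overlapped, although the CKO library was above the control library in 3 of 3 pairs of the same replicate number. The log2 fold change was 0.51 ± 0.29 (SE). With the replicate number as a block, it was 0.52 ± 0.18 and Rhox5 joined the called genes, so that 2 members were higher and 2 lower while 23.3% of all genes were called, 15.8% higher and 7.51% lower.

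Rhox1 was at 5.24, 5.26 and 6.88 CPM in the control and at 2.69, 2.82 and 2.72 CPM in the CKO c-Kit+ libraries. The groups did not overlap, and the CKO libraries were nearly equal. The log2 fold change was -1.14 ± 0.18 (SE). For the placental and germ cell paralogs Rhox6 and Rhox9, counts were 6 to 26 and 7 to 54, and the log2 fold changes of -0.76 ± 0.50 and -0.36 ± 0.59 were not distinguishable from 0 at this depth. Rhox11 was counted 4, 46 and 20 times in the control and 0, 4 and 2 times in the CKO c-Kit+ libraries and did not pass the filter, although its CPM did not overlap between the groups. Rhox12 had 0 to 6 counts in a library and was not tested either. A count of 0 allows up to 3 counts if counts are independent, and more where both reads of a pair were counted.

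In the same comparison, 20 of 20 Sertoli markers rose in CKO c-Kit+ cells (median log2 fold change 1.14 against 0.01 over all genes), among them the most abundant, Clu (1.16 ± 0.26, FDR = 0.00607) and Aard (1.16 ± 0.27, FDR = 0.00689), by edgeR's quasi-likelihood test. In the fit of all 12 libraries, 5 of the 20 were called, and Clu and Aard were not, with log2 fold changes of 1.22 for both. None of the 20 was at 0 in any library. Of the 15 germ cell markers 2 were called lower and 0 higher, with a median log2 fold change of -0.29. The most abundant were Dazl (-0.45 ± 0.08, FDR = 0.00173) and Uchl1 (-0.18 ± 0.07, FDR = 0.0756) by the same test, both short of the 0.5 needed for a call. The 2 called were Stra8 (-0.67 ± 0.09), a gene of meiotic entry, and Tex101 (-1.96 ± 0.17), a germ cell surface protein. Both are named after their values were seen. In the fit of all 12 libraries 1 of the 15 was called lower. Markers of other somatic cells rose as well, 6 of 6 stromal, 5 of 5 endothelial, 3 of 5 peritubular myoid and 4 of 7 Leydig cell genes, while 0 of 6 macrophage genes passed this test, with Csf1r called higher by edgeR's exact test and by DESeq2 (0.76 and 0.75). With the replicate number as a block, 7 of 7 Leydig and 4 of 6 macrophage genes were higher. Rhox8 moved with the Sertoli markers, and the other somatic lists moved too; their part in its difference was not tested, and its level per unit of Sertoli marker is given next.

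**Figure D2:**
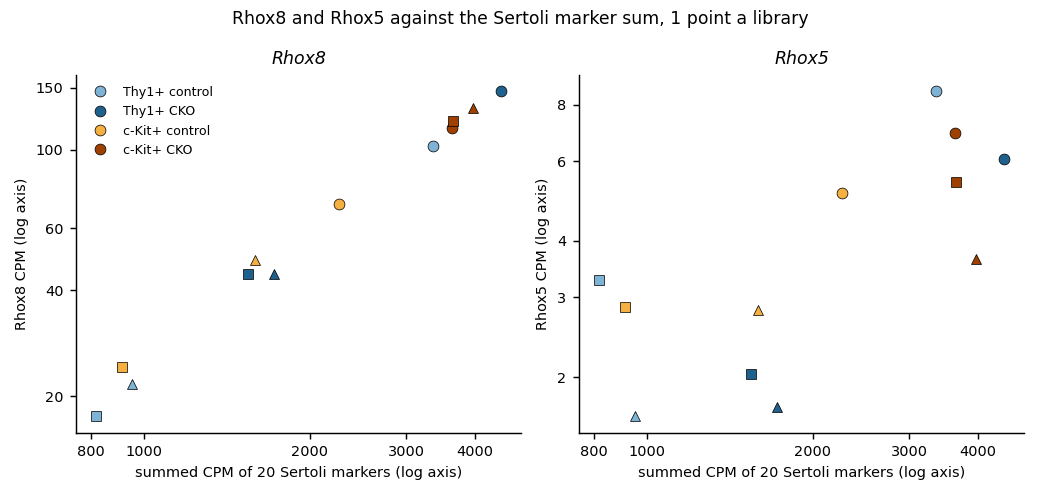
CPM of Rhox8 and Rhox5 (log axes) against the summed CPM of 20 Sertoli markers, with 1 point for each of the 12 libraries, colored by group; circles, squares and triangles are replicates 1, 2 and 3. Rhox8 lies close to a line through all 4 groups, whereas Rhox5 varied 4.84-fold per unit of the markers.

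Per unit of Sertoli marker, Rhox8 hardly varied. Its CPM ranged 8.38-fold over the 12 libraries, while its ratio to the summed Sertoli markers, both per kilobase, ranged 1.40-fold, from 0.0335 to 0.0468. In c-Kit+ cells this log2 ratio was higher in CKO than in control libraries by 0.16 (pooled SD 0.07, no overlap), and in Thy1+ cells by 0.21 (pooled SD 0.14, with overlap), against log2 fold changes of 1.30 and 0.74 for Rhox8 itself. Of all 18001 other genes compared, those whose log2 CPM was most like that of Rhox8 over the 12 libraries were AU015836, Shbg, Aard, Clu and Kctd14, with a Pearson correlation of 0.998 for the first and 0.997 for the others. Aard and Clu are on the Sertoli list. The 12 libraries share their group means, so these correlations are a description.

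Rhox5, the second Sertoli cell gene, followed Rhox8 less closely than the Sertoli markers Aard and Clu did. Its correlation with Rhox8 was 0.72, the highest that Rhox5 had with any of the other members compared. By it Rhox5 ranked 1146 of 18001 among the genes most like Rhox8, and Rhox8 ranked 421 among those most like Rhox5, and the genes most like it were Celsr1 (0.93), Vsig1 (0.93), Tiam1 (0.92), Exoc6 (0.91) and 4930550L24Rik (0.90). Its ratio to the Sertoli markers was 0.00570, 0.0100 and 0.00438 in control and 0.00301, 0.00317 and 0.00249 in CKO Thy1+ libraries, with no overlap. It was 0.00491, 0.00721 and 0.00396 in control and 0.00431, 0.00335 and 0.00207 in CKO c-Kit+ libraries, which overlapped. The log2 ratio differed by -1.13 (pooled SD 0.45) in Thy1+ and by -0.74 (pooled SD 0.49) in c-Kit+ cells, lower in CKO cells in both. Per unit of Sertoli marker, then, Rhox8 was slightly higher and Rhox5 lower in the CKO libraries. In c-Kit+ cells the CPM of Rhox5 and its level per unit of marker thus differed in opposite directions.

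Rhox13 was lower also per unit of germ cell marker. Its ratio to the summed markers was 0.0135, 0.0136 and 0.0165 in control and 0.00577, 0.00596 and 0.00683 in CKO c-Kit+ libraries, and the log2 ratio differed by -1.23 (pooled SD 0.15) without overlap. In Thy1+ cells it differed by -0.74 (pooled SD 0.24), again without overlap. For Rhox10 the same ratio differed by 0.21 (pooled SD 0.15) in c-Kit+ and 0.22 (pooled SD 0.17) in Thy1+ cells, higher in CKO libraries but with overlap in both. For Rhox1 it differed by -0.72 (pooled SD 0.22) without overlap in c-Kit+ and by -0.54 (pooled SD 0.46) with overlap in Thy1+ cells. The cell type in which Rhox1 is expressed in these libraries is not known from the counts.

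The genes most like Rhox13 over the 12 libraries were Tinf2, Abca2, Ybx2, Adarb1 and Rapgefl1 (correlations 0.99). Ybx2, which encodes a germ cell RNA-binding protein, was at 62.9 CPM on average in control and at 20.5 in CKO c-Kit+ libraries. Those most like Rhox10 were Bora (0.98), Sarnp (0.97), Denr (0.97), Tbrg4 (0.97) and Nup43 (0.97). Rhox13 and Rhox10 had a correlation of 0.69 with each other, and those of Rhox13 and Rhox10 with Rhox8 were -0.47 and -0.07.

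**Figure D3:**
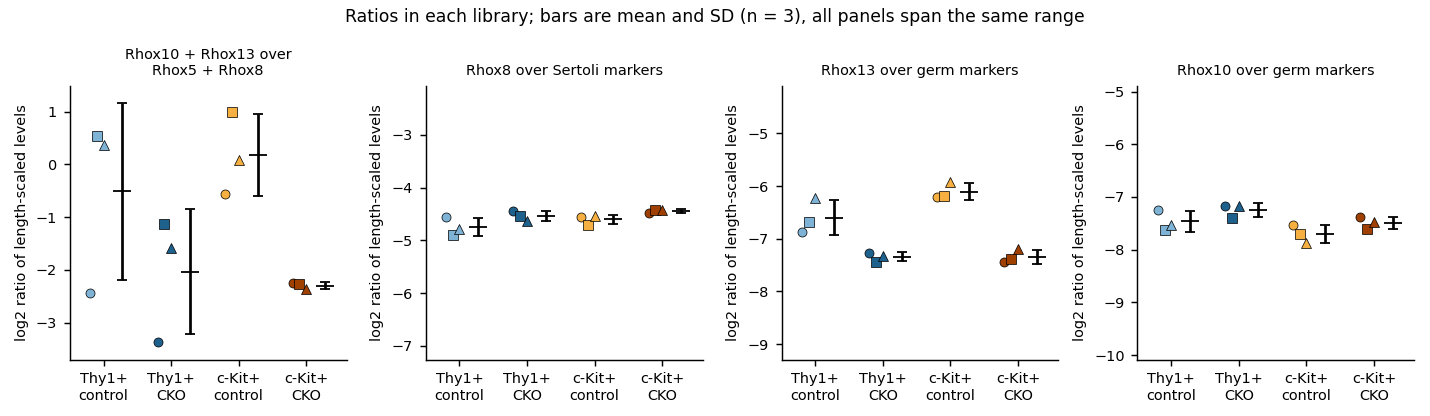
Log2 ratios of length-scaled levels in each library, by group; circles, squares and triangles are replicates 1, 2 and 3, bars are the mean and SD (n = 3), and all 4 panels span the same range. Rhox8 over the Sertoli markers stays between -4.90 and -4.42 in all libraries, while Rhox13 over the germ cell markers is lower in the CKO groups and Rhox10 over the same markers is not.

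The ratio of germ cell to Sertoli cell Rhox genes, (Rhox10 + Rhox13) over (Rhox5 + Rhox8) per kilobase, was 0.680, 1.99 and 1.06 in control and 0.210, 0.207 and 0.193 in CKO c-Kit+ libraries. All CKO libraries were below all controls. The mean log2 ratio was 0.17 ± 0.78 in control and -2.30 ± 0.07 in CKO c-Kit+ cells, a difference of -2.47. The difference was -3.06 with Rhox13 over Rhox8 alone, -1.62 with Rhox10 over Rhox8 and -0.72 with Rhox10 over Rhox5, so its size depends on which members stand for each cell type. In Thy1+ cells the ratio was 0.184, 1.46 and 1.29 in control and 0.0963, 0.457 and 0.333 in CKO libraries. Replicate 1 was far below the others in both genotypes, and the groups overlapped. The mean log2 difference there was -1.52 (pooled SD 1.45), and it became -2.49 without control replicate 1 and -0.85 without CKO replicate 1. With Rhox10 over Rhox5 alone it was 0.23 and thus of the other sign.

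The second comparison asked the same of Thy1+ cells. Rhox13 was at 12.5, 22.6 and 23.2 CPM in the control and at 7.58, 11.2 and 7.71 CPM in the CKO Thy1+ libraries. The groups did not overlap, with a log2 fold change of -1.13 ± 0.27 (SE). Rhox1 was at 6.98, 6.18 and 4.11 CPM in the control and at 1.98, 3.94 and 3.44 CPM in the CKO libraries, again without overlap (-0.88 ± 0.32). Rhox10, at 5.88, 7.21 and 5.72 against 4.92, 6.91 and 5.25 CPM, showed overlapping groups (-0.13 ± 0.22), as in c-Kit+ cells.

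The Sertoli cell genes were dominated by replicate 1 in Thy1+ cells. Rhox8 was at 103, 17.5 and 21.7 CPM in the control and at 147, 44.3 and 44.6 CPM in the CKO libraries. The groups overlapped, although the CKO library was the higher in 3 of 3 pairs of the same number. Its log2 fold change was 0.74 ± 0.72 (SE), 2.01 without control replicate 1, -0.08 without CKO replicate 1 and 1.19 without both. Rhox5 was at 8.59, 3.28 and 1.64 CPM in the control and at 6.06, 2.04 and 1.72 CPM in the CKO libraries (-0.46 ± 0.66), overlapping and lower in 2 of 3 pairs. The Sertoli marker sum was likewise highest in replicate 1 of both genotypes, and its part in these values was not tested beyond the ratios above.

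No member was called in Thy1+ cells, and 0% of the 17416 genes tested were. edgeR's quasi-likelihood test gave 0 genes, with 2151 at an unadjusted p under 0.05, whereas edgeR's exact test called 294 genes and DESeq2 378, Rhox13 among both (lower). The CKO and control libraries of the same replicate number deviated together, and with the replicate number as a block 8.12% of all genes were called, 3.2% higher and 4.92% lower. Rhox8 was then called higher (0.94 ± 0.11), and Rhox13 (-1.10 ± 0.14) and Rhox1 (-0.89 ± 0.25) lower. In c-Kit+ cells the fit with the same block called these 3 and Rhox5. With this block, 15 of 20 Sertoli markers were higher and 5 of 15 germ cell markers lower, against 0 and 0 in the quasi-likelihood fit without it. edgeR's exact test, DESeq2 and the fit of all 12 libraries each called 3 germ cell markers lower without the block. Of the 7 members, 3 were without overlap and lower (Rhox1, Rhox6 and Rhox13) and 0 higher, against 10.7% and 6.49% of all genes. The median log2 fold change of the 7 members was -0.46, against 0.02 over all genes. Rhox6 was counted 20, 22 and 16 times in the control and 14, 10 and 0 times in the CKO libraries (-1.22 ± 0.78), and Rhox9 8 to 24 times over both groups (-0.31 ± 0.47). Rhox11 had 10, 10 and 4 counts in control and 2, 4 and 0 in CKO libraries, with no overlap in CPM, and Rhox12 0 to 4.

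For the difference in the genotype effect between the populations, all 12 libraries were fitted. edgeR's quasi-likelihood test called 0% of 18002 genes (1804 at an unadjusted p under 0.05, 64 by DESeq2) and 0 members. With the replicate block it called 2.48%, 2.34% higher and 0.133% lower, again with 0 members. The log2 difference, c-Kit+ minus Thy1+, was -0.45 ± 0.30 (SE) for Rhox13, -0.01 ± 0.25 for Rhox10, 0.62 ± 0.89 for Rhox8, 1.04 ± 0.81 for Rhox5 and -0.19 ± 0.37 for Rhox1. These differences are a description, like the other values of the members.

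**Figure D4:**
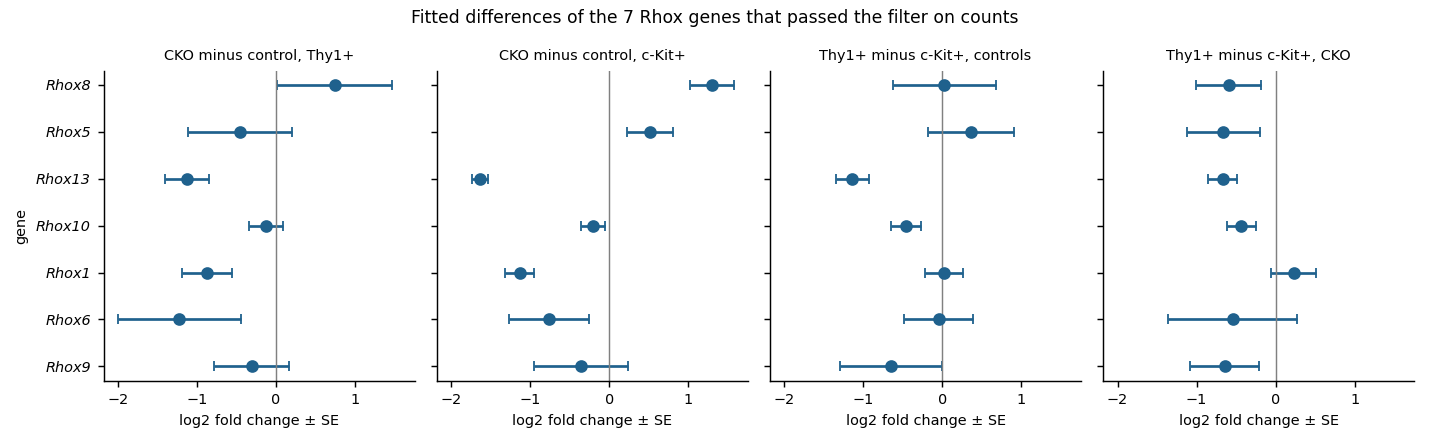
Log2 fold change with its SE, from the fit without a block, of the 7 Rhox genes with enough counts, in 4 comparisons; points right of 0 are higher in the first group named. Rhox13 lies left of 0 in all 4, at -1.13, -1.64, -1.14 and -0.67, and Rhox8 lies to the right for the genotype in both populations.

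Between the populations, Rhox13 was the member with the clearest fitted difference, before its level is set against the germ cell markers. In control libraries its log2 fold change (Thy1+ minus c-Kit+) was -1.14 ± 0.21 (SE), lower in Thy1+ cells without overlap, and Rhox10 was also lower without overlap (-0.46 ± 0.19). Rhox13 alone was called, 0 higher and 1 lower of 7 members, while 27.8% of all 17350 genes were called, 20.7% higher and 7.08% lower. With the replicate block Rhox13 was again the 1 member called, against 30.1% of all genes, 21.8% higher and 8.38% lower. Groups that did not overlap were found for 0 members above and 2 below, against 29.5% and 24.8% of all genes. The other members overlapped between the populations, with log2 fold changes of 0.02 ± 0.24 for Rhox1, 0.37 ± 0.55 for Rhox5, 0.02 ± 0.65 for Rhox8, -0.04 ± 0.44 for Rhox6 and -0.65 ± 0.65 for Rhox9. That of Rhox8 was -1.28 without control Thy1+ replicate 1. The 15 germ cell markers had a median log2 fold change of -0.43, with 7 called lower in Thy1+ cells and 2 higher. Per unit of germ cell marker, the mean log2 ratio of Rhox13 was -6.60 ± 0.33 (SD) in Thy1+ and -6.11 ± 0.16 in c-Kit+ controls. That of Rhox10 was -7.46 ± 0.19 and -7.70 ± 0.17, so higher in Thy1+ cells. The part of germ cell content in these differences was not tested.

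In CKO libraries Rhox13 was again lower in Thy1+ cells (-0.67 ± 0.18, no overlap) and the 1 member called, while 20.3% of 17346 genes were called, 15.3% higher and 5.03% lower. With the replicate block Rhox5 (-0.83 ± 0.27) and Rhox13 were lower, against 22.4% of all genes, 15.6% higher and 6.84% lower. Deviations of libraries with the same number correlated weakly here (0.0211 to 0.204), so whether they are paired is uncertain. Without overlap were 0 members above and 3 below, against 23.3% and 26.7% of all genes. The call was lost without any of the 3 c-Kit+ libraries or without Thy1+ replicate 1 or 3, with log2 fold changes between -0.87 and -0.55 over the libraries left out. Rhox10 (-0.43 ± 0.18) and Rhox9 (-0.64 ± 0.44) were lower without overlap. The 15 germ cell markers had a median log2 fold change of -0.48, with 4 called lower and 1 higher. Per unit of germ cell marker, the mean log2 ratio of Rhox13 was -7.34 ± 0.08 (SD) in Thy1+ and -7.34 ± 0.13 in c-Kit+ CKO libraries, so Rhox13 did not differ on that scale. That of Rhox10 was -7.25 ± 0.14 and -7.49 ± 0.11. Rhox5 (-0.66 ± 0.46) and Rhox8 (-0.60 ± 0.41) overlapped, and were -1.44 and -1.40 without Thy1+ replicate 1. These comparisons share libraries with those of the genotype and are not independent of them.

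The other 26 Rhox genes are mostly copies of Rhox2, Rhox3 and Rhox4. From 47.3% to 100% of the 50-base exon windows of these copies occurred more than once in the region, so the level of a single copy is uncertain. In c-Kit+ cells 12 of the 26 passed the filter, of which 4 fell in CKO cells, 0 rose and 8 did not pass the test, with a median log2 fold change of -0.61. Over all genes tested, 7.41% were called lower and 14.8% higher. Copies that share windows are not separate observations. The most abundant by mean CPM were Rhox2a, Rhox2-ps, Rhox7a and Rhox2d. Rhox2-ps, annotated as a pseudogene, has few shared windows (7.71%) and fell by 1.70 ± 0.23 on the log2 scale (FDR = 0.000534, edgeR's quasi-likelihood test). Its level was 6.00, 8.32 and 7.23 CPM in control and 1.71, 3.02 and 2.14 CPM in CKO c-Kit+ libraries, without overlap. Rhox7a (58.3% shared) fell by 1.30 ± 0.25 (FDR = 0.00263), Rhox2a (93.6% shared) fell by 0.65 ± 0.21 (FDR = 0.0344), and Rhox2d was at -0.58 ± 0.26 (FDR = 0.107). The call of Rhox2a was lost without control replicate 1 (-0.46), CKO replicate 1 (-0.54) or CKO replicate 3 (-0.62), and in the fit of all 12 libraries (-0.59). The fourth called gene was Rhox2f. In Thy1+ cells 0 of 12 passed the quasi-likelihood test without a block, while Rhox2-ps and Rhox7a were called lower by edgeR's exact test, by DESeq2 and in the fit of all 12 libraries. With the replicate block 3 fell, Rhox2-ps, Rhox7a and Rhox2a (-1.46, -1.51 and -0.67). As sums over copies, the 8 Rhox2 genes were at 17.5 ± 3.06 CPM in control and 12.5 ± 1.38 in CKO c-Kit+ libraries, the 8 Rhox4 genes at 2.09 ± 0.345 and 1.27 ± 0.145, and the 7 Rhox3 genes at 0.491 ± 0.186 and 0.163 ± 0.0933.

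**Figure D5:**
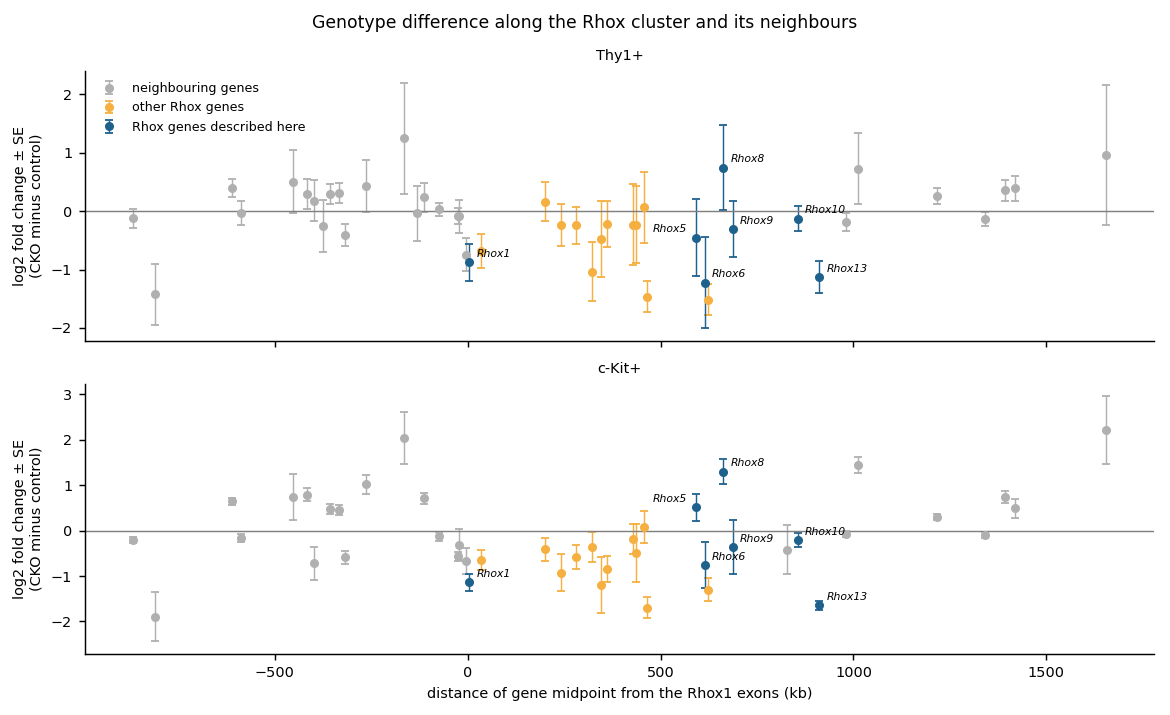
Log2 fold change with its SE (CKO minus control, fit without a block) of every tested gene by the distance of its midpoint from the start of the Rhox1 exons, in Thy1+ (above) and c-Kit+ (below) cells; blue are the Rhox genes described, orange the other Rhox genes and grey the neighbours within 1 Mb. In c-Kit+ cells Rhox8 at 1.30 and Rhox5 at 0.51 lie above 0 between Rhox genes that lie below it.

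The genes around the cluster went in both directions. Of 35 neighbours within 1 Mb on either side, 25 were tested in c-Kit+ cells, and 8 rose, 3 fell and 14 did not pass the test (median log2 fold change 0.30). Of all genes tested, 14.8% were called higher and 7.41% lower. The largest differences were those of 6030498E09Rik (2.21 ± 0.75, FDR = 0.0401), Sowahd (2.03 ± 0.57, FDR = 0.0178) and Gm6268 (-1.89 ± 0.54, FDR = 0.0196) by edgeR's quasi-likelihood test. All 3 had few counts. Their levels in control and CKO c-Kit+ libraries were 0.174 ± 0.210 and 0.851 ± 0.247 CPM (6030498E09Rik), 0.155 ± 0.122 and 0.665 ± 0.142 (Sowahd), and 1.07 ± 0.527 and 0.304 ± 0.159 (Gm6268). 6030498E09Rik and Sowahd also lost their calls in the fit of all 12 libraries (2.27 and 2.09). Each of the 3 lost its call without some single library, 6030498E09Rik without any of control replicates 2 and 3 and CKO replicates 1, 2 and 3, with log2 fold changes from 1.64 to 2.37, Sowahd without control replicate 2 (1.64) or 3 (1.87) or CKO replicate 2 (1.84), and Gm6268 without control replicate 3 (-1.43) or CKO replicate 2 (-1.49). In Thy1+ cells 0 of 26 passed the test, and 1 rose and 1 fell with the replicate block.

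Regulators of Rhox genes known from other work were read next, as a list of 17 genes that holds GATA and ETS factors, DNA methyltransferases and H3K9 methyltransferases. In c-Kit+ cells 5 rose in CKO libraries, 1 fell and 11 did not pass the test, with a median log2 fold change of -0.03. The shares over all genes were 14.8% higher and 7.41% lower. Gata4 (1.06 ± 0.14, FDR = 0.000469) and Gata1 (0.85 ± 0.23, FDR = 0.0145) rose the most by edgeR's quasi-likelihood test, and both are also on the Sertoli list. The call of Gata1 was lost without CKO replicate 2 (0.74) and in the fit of all 12 libraries (0.90). The gene that fell was Setdb1, an H3K9 methyltransferase gene (-0.71 ± 0.09), and Ets2 and Elf1 were among those that rose. Setdb1, Ets2 and Elf1 are named after their values were seen. In Thy1+ cells 0 of 17 passed the test, and Gata4 alone rose with the replicate block (0.58).

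Of 4 genes reported to respond to Rhox factors, Unc5c, Ins2, Dmrt1 and Zbtb16, Ins2 rose in CKO c-Kit+ cells (1.01 ± 0.35, FDR = 0.0422, edgeR's quasi-likelihood test), from 0.947 ± 0.356 to 1.99 ± 0.464 CPM. This call was lost without control replicate 2 (0.74) or 3 (1.04), without CKO replicate 1 (1.01) or 3 (0.83) and in the fit of all 12 libraries (1.07). The other 3 did not pass the test, with log2 fold changes of 0.73 for Unc5c, -0.13 for Dmrt1 and -0.09 for Zbtb16. In Thy1+ cells none of the 4 passed edgeR's quasi-likelihood test without a block, while 1 was called lower by edgeR's exact test, by DESeq2 and in the fit of all 12 libraries. With the replicate block Zbtb16, a gene of undifferentiated spermatogonia, fell (-0.60).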

How the data were processed

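RNA-seq was performed on 12 libraries of mouse testis cells enriched for spermatogonia. The authors deposited raw counts per gene: reads were trimmed with Trimmomatic 0.39, aligned with HISAT2 2.1.0 to mm10 and counted over RefSeq exons with featureCounts (2.0.3 per the file headers), with no strand option given. Of counts below 20, 67.4% were even, so reads rather than pairs were mostly counted, and counting intervals would be too narrow. ChIP samples were not analysed here. Of 27179 gene IDs 25275 had a symbol, and 0 value columns were left unmatched.

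Groups followed the labels. Genes were tested with edgeR 4.0.16 in R 4.3.3 (TMM, filterByExpr, quasi-likelihood test, Benjamini-Hochberg adjustment, FDR under 0.05 and absolute log2 fold change over 0.5, and FDR alone for the interaction), between the libraries of each comparison, or all 12 for the interaction. The SE is the log2 fold change divided by the square root of F. CPM is counts-per-million of the library total multiplied by its TMM factor. That total is over the genes that passed the filter applied to all 12 libraries together. RPKM is CPM per kilobase of exon, and likeness is Pearson's r of log2 CPM (prior count 2). The study's own exact test, DESeq2 1.42.0, other scalings and filters, and left-out libraries were alternatives. Only the quasi-likelihood fit without a block, for the genotype and population comparisons, was tested on simulated data.

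The members and lists were chosen with earlier results of these data known, so no p-value is given for members and their calls support nothing. The FDRs printed for other genes come from the fit over all genes and, for the same reason, are a description. Named were all members, Chd8, the 4 most abundant other Rhox genes, up to 3 called genes with the largest change among regulators, responders and neighbours within 1 Mb, the 5 genes most like each of 4 members, and markers. A gene counted in the lists is not reported here by itself.

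Deviations from group means of libraries with the same replicate number correlated at 0.266 to 0.490 for the genotype in Thy1+ cells. They correlated at 0.101 to 0.125 for the genotype in c-Kit+ cells and at 0.134 to 0.298 for the populations in controls. In these comparisons libraries of the same number were taken as paired. For the populations in CKO (0.0211 to 0.204) and the interaction they were not, as only 1 of 3 and 10 of 18 correlations were above 0.1. That does not show that these libraries are unpaired. The main fits had no block in any comparison, and fits with the replicate block are given beside them.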

Additional observations from a re-analysis of the deposited data

How the results depend on the processing

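Of 391 log2 fold changes of members under the alternatives, 387 stayed within 1 SD of the reported value and 0 called values changed sign. Leaving out 1 of 3 libraries mostly moves a mean by less than that SD, so this count says little about stability. A sign change was counted only for members called in the main fit, and Thy1+ had none. Without 1 library some uncalled values did change sign, such as Rhox8 (0.74 to -0.08) and Rhox5 (-0.46 to 0.41) in Thy1+ and Rhox9 (-0.36 to 0.51) in c-Kit+ cells. In Thy1+ cells the 0 genes called became 294 (edgeR's exact test), 378 (DESeq2), 250 (all 12 libraries in 1 fit) and 1414 (replicate block), and 7 without both replicate 1 libraries, an alternative chosen after seeing the data. The members called there became 1 in each of the first 3 (Rhox13) and 3 with the block. For the populations in controls 2 members (Rhox10 and Rhox13) were called by DESeq2 and with library size only, and in CKO 2 with the replicate block. Of all genes in controls, DESeq2 called 5107, 3523 higher and 1584 lower, against 4823 of 17350 in the main fit. In CKO the block called 22.4% of all genes. Nothing is read from these counts of members. The interaction had 64 genes by DESeq2 and 446 with the replicate block. The block moved no other count of members or of all genes by over 1.5 times. The cause of these differences was not tested.

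Leaving out 1 library gave 0 to 10 genes and 0 members in Thy1+, 3175 to 4144 genes and 3 to 5 members in c-Kit+ (5 without control replicate 1, with Rhox5 and Rhox11), 3542 to 5647 genes and 1 to 2 members between populations in controls, 2341 to 5017 genes and 0 to 2 members in CKO, and 0 to 1 genes and 0 members for the interaction. The germ to Sertoli ratio difference ranged from -2.49 to -0.85 in Thy1+ and from -2.84 to -2.06 in c-Kit+ cells, Sertoli members over markers from 0.0046 to 0.130 and from 0.0635 to 0.0924, and germ members over markers from -0.40 to -0.23 and from -0.77 to -0.67.

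By single members, the germ to Sertoli ratio difference was 0.23 (Rhox10 over Rhox5) in Thy1+ and -0.72 (Rhox10 over Rhox5), -1.62 (Rhox10 over Rhox8) and -3.06 (Rhox13 over Rhox8) in c-Kit+ cells. Members over Sertoli markers differed by -1.13 (Rhox5) and 0.21 (Rhox8) in Thy1+ and -0.74 and 0.16 in c-Kit+ cells. Members over germ markers differed by 0.22 (Rhox10) and -0.74 (Rhox13) in Thy1+, and by 0.21 and -1.23 in c-Kit+ cells. The summed germ members over germ markers differed by -0.72 in c-Kit+ cells, and by -0.95 with raw counts not divided by length. Rhox6, Rhox9, Rhox11 and Rhox12 had few counts, and control c-Kit+ libraries of similar depth held 54, 7 and 24 counts of Rhox9.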
